A study of Mus musculus with 22 samples.

Results

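Regulatory T cells were taken as the T cells in which the transcript of Foxp3 was captured, so the members were chosen by their measured UMIs of Foxp3 and of the gate genes named next. Across all libraries of the series, a cell had to have at least 200 detected genes and at most 25% of its unique molecular identifiers (UMIs, each standing for 1 captured transcript) from mitochondrial genes. It also needed at least 1 UMI of Foxp3, at least 1 UMI of Cd3d, Cd3e, Cd3g or Trbc2, and no UMI of Cd79a, C1qa or Epcam, which mark B cells, macrophages and epithelium. This rule found 256 Foxp3+ T cells among 12487 cells passing the same T cell gate without the Foxp3 term, 95843 cells passing the quality filter and 179929 barcodes in all. They were set against 1116 Foxp3-negative T cells with at least 1 Cd4 UMI, called conventional CD4 T cells here, and 1998 CD8 T cells gave a further reference.

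The series held 22 single-cell RNA libraries from mice that all carried the Prom1-CreERT2 and Rosa26ZSG alleles, with Nalcn, a sodium leak channel gene, either wild-type (wt), heterozygous (het) or null. Tissue libraries pooled kidney, liver, lung and stomach with epididymis in males or uterus in females. The 5 wt libraries came from mice of 571, 571, 608, 611 and 654 days (replicates 4 and 5 female), the 2 het libraries from males of 551 days, and the 2 null libraries from a male of 552 days and a female of 611 days. Another 2 tissue libraries, of 610 and 647 days, were left without a group, since their titles and strain labels disagreed on the genotype. Blood was represented by 10 libraries of ZsGreen-sorted circulating cells from tumor-free mice of 551 to 649 days (ntCZC; 2 wt, 4 het, 4 null) and by 1 wt library of peripheral blood mononuclear cells (PBMC) from a male of 120 days. Per the study's methods, the recombinase was induced with tamoxifen. It is driven by the Prom1 promoter, and recombination of Nalcn in the T cells themselves was not measured here. The organs were pooled under hashtag antibodies whose counts were not used here, so no cell had an organ of origin. The labels did not say whether replicates came from separate mice, and the p-values below therefore measure the spread between libraries, which may in part be technical.

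Regulatory T cells are CD4 T cells that restrain other immune cells and keep tolerance to self. FOXP3 is the transcription factor that fixes their identity, the high-affinity interleukin-2 receptor (encoded in part by Il2ra) lets them consume interleukin-2, and CTLA4 removes costimulatory ligands from antigen-presenting cells. Those resident in solid organs often carry the interleukin-33 receptor ST2 (Il1rl1) and have been linked to tissue repair.

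The markers of the cell type went with the label. Ikzf2, which encodes the transcription factor Helios, was detected in 83.6% of Foxp3+ T cells, 34.5% of conventional CD4 T cells and 13.5% of CD8 T cells. Ctla4 was detected in 60.5%, 32.0% and 11% of these classes, and Il2ra in 28.9%, 5.11% and 1.70%. At least 1 of these 3 markers was seen in 240 Foxp3+ T cells (93.8%) and in 595 conventional CD4 T cells (53.3%), and all 3 together in 44 (17.2%) and 11 (0.986%). Pooled over libraries, the classes had similar depth, with a median of 2008.5 UMIs in Foxp3+ T cells, 1893.5 in conventional CD4 T cells and 1905 in CD8 T cells. Within a library the depth could differ either way. The medians of Foxp3+ and conventional cells were 4035 and 2756.5 UMIs in wt replicate 2, and 2484 and 3730 in wt replicate 1. When every cell was thinned to 500 UMIs, the expected detection of Ikzf2 was 46.5% in Foxp3+ and 18.1% in conventional cells, that of Ctla4 27.1% and 13.5%, and that of Il2ra 8.33% and 1.01%. The order of both classes was the same after thinning. How many conventional CD4 T cells carried Foxp3 RNA that was not captured was not tested. Cells that should lack Foxp3 gave its background, 0.115% of B cells (8 of 6963), 0.154% of macrophages (9 of 5849), 0.217% of epithelial cells (8 of 3693) and 0.0835% of endothelial cells (6 of 7183).

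**Figure D1:**
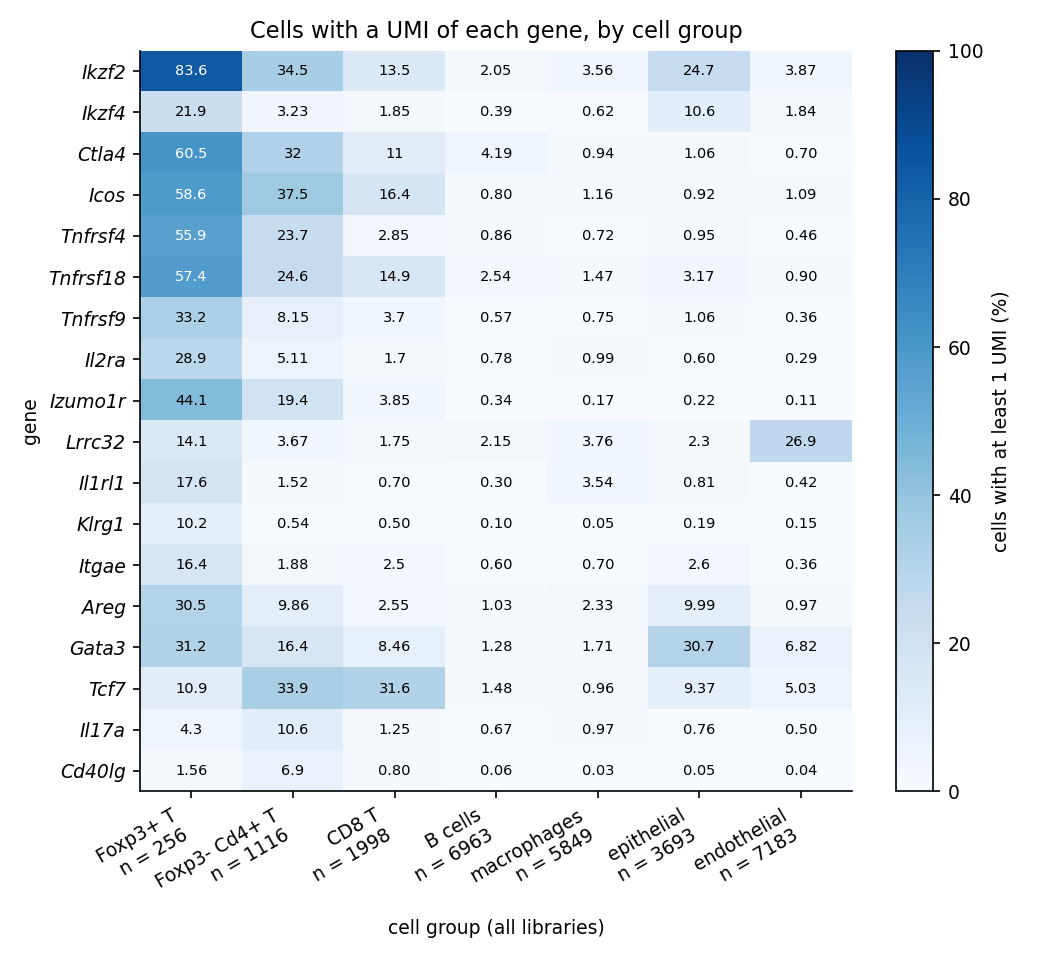
Percent of cells with at least 1 UMI of each gene in Foxp3+ T cells, conventional CD4 T cells and CD8 T cells, all libraries pooled. Ikzf2 reached 83.6% in Foxp3+ T cells against 34.5% in conventional CD4 T cells, and Il2ra 28.9% against 5.11%.

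The members near the threshold were 184 cells with a single Foxp3 UMI, and the other 72 had between 2 and 6. Single-UMI members had a median of 1839 UMIs, and Ctla4 was detected in 54.9%, Ikzf2 in 81.5% and Il2ra in 23.4% of them. In members with at least 2 Foxp3 UMIs, whose median was 2984 UMIs, the shares were 75.0%, 88.9% and 43.1%. Cd4, which the rule did not ask for, was captured in 57 members (22.3%). Ctla4 was detected in 82.5%, Ikzf2 in 89.5% and Il2ra in 31.6% of those 57. All conventional cells had a Cd4 UMI by their rule, and the part of this unlike gate in the class differences was not tested. Foxp3 was detected in 607 barcodes in all, of which 177 failed the quality filter and 174 lay outside the T cell gate. Among those outside, the 72 with a CD3 or Trbc2 UMI and an excluding marker had Ikzf2 in 80.6% and Ctla4 in 56.9%, at a median of 4355 UMIs against 2008.5 in the members. The 65 without a CD3 or Trbc2 UMI and without an excluding marker had Ikzf2 in 30.8% and Ctla4 in 18.5%, at a median of 1735 UMIs. The rule left out these cells, and no cell was removed as a doublet. Barcodes of 3 members also passed in another library, and no barcode was shared between members of different libraries.

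The 11 tissue libraries held 254 of the 256 Foxp3+ T cells (99.2%), beside 96.5% of all T cells and 97.1% of all passing cells. The wt libraries held 14, 85, 6, 55 and 2 of them in replicate order, or 2.16%, 3.29%, 1.09%, 2.11% and 6.45% of their T cells. The het libraries held 12 and 7 (1.16% and 1.51%), and null replicates 2 and 3 held 9 and 14 (0.926% and 1.39%). The largest share, that of wt replicate 5, rested on 2 of 31 T cells, with an exact Clopper-Pearson 95% interval from 0.791% to 21.4%, which covers counting error only. In wt replicate 2, the library with the most T cells among the male wt mice, the interval ran from 2.64% to 4.05%, above those of het replicate 1 (0.600% to 2.02%), null replicate 2 (0.424% to 1.75%) and null replicate 3 (0.762% to 2.32%). It overlapped that of het replicate 2 (0.607% to 3.08%). The intervals of the other 4 wt libraries overlapped those of all het and null libraries.

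By genotype, the mean share of T cells was 3.02% ± 2.07 (SD, n = 5) in wt, 1.33% ± 0.245 (n = 2) in het and 1.16% ± 0.328 (n = 2) in null libraries. The het and null libraries together averaged 1.25% ± 0.257 (n = 4), lower than wt by 1.78 percentage points (exact two-sided permutation test, p = 0.103). The separate comparisons gave p = 0.429 for het and p = 0.286 for null by the same exact test, whose smallest possible p is 0.0476 in these designs. The combined comparison passed only without wt replicate 3, whose share of 1.09% was inside the range of the het and null libraries. Without that library the difference was -2.26 percentage points (exact permutation test, p = 0.0286). This comparison left out the only wt library inside that range, so its p cannot decide whether the shares differ. Without wt replicate 5, whose share rested on 2 cells, the difference was -0.918 percentage points (exact permutation test, p = 0.114). The Foxp3+ T cells of the wt libraries were also more deeply sequenced, with a pooled median of 2619 UMIs against 1569 in het and 1269 in null. With every T cell thinned to 500 UMIs, which left out no cell, the expected shares were 0.740% ± 0.267 in wt and 0.523% ± 0.151 in het and null (exact permutation test over 5 and 4 libraries, p = 0.214). Taken as a share of Foxp3+ plus conventional CD4 T cells, the groups averaged 19.2% ± 4.79 and 18.7% ± 3.33 (exact permutation test, p = 0.865). Among the male libraries alone the wt shares were 2.16%, 3.29% and 1.09% and the het and null shares 1.16%, 1.51% and 0.926%, so the ranges overlapped there too. Among the female libraries, 2.11% and 6.45% in wt stood beside 1.39% in the only null library, too few for a test. Both het libraries (551 days) and null replicate 2 (552 days) came from mice younger than any wt mouse (571 to 654 days). Genotype and age therefore cannot be told apart for het, and only in part for null.

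**Figure D2:**
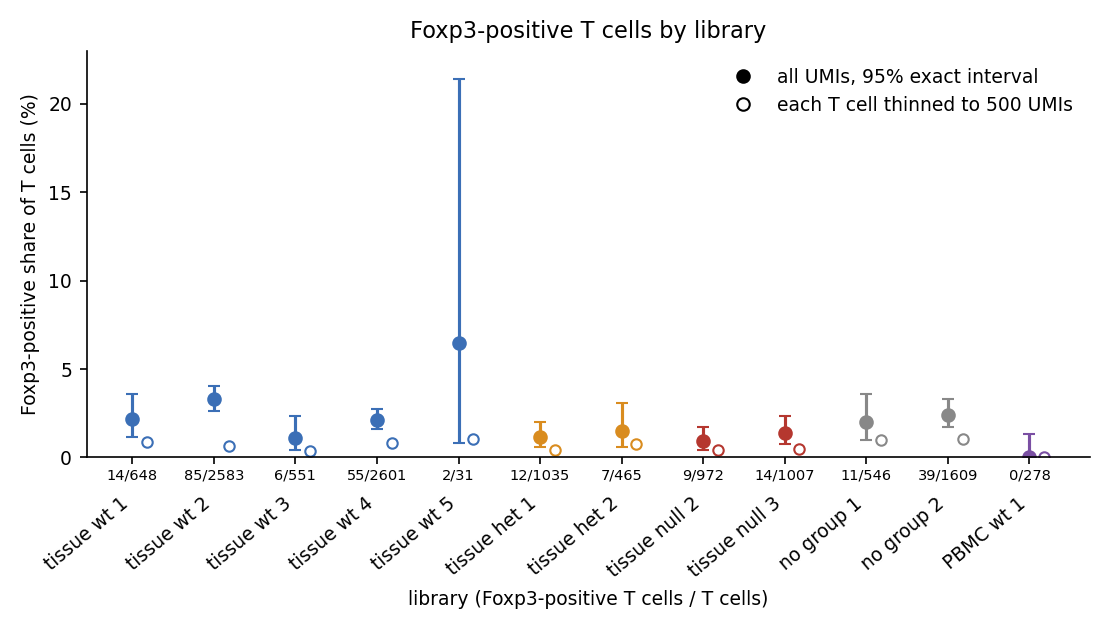
Foxp3+ T cells as a percent of T cells (vertical axis) in each tissue library with a genotype group, with exact 95% binomial intervals as bars. The het and null libraries sat between 0.926% and 1.51%, and 4 of the 5 wt libraries were above them while wt replicate 3 was at 1.09%.

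In blood, Foxp3+ T cells were rare in absolute number. The PBMC library had none among 278 T cells, 63 of them conventional CD4 T cells, where a count of 0 allows a share of cells with a Foxp3 UMI of up to 1.08% (3 counts of the total) or 1.32% (upper end of the exact 95% interval). The ntCZC libraries together held 161 T cells and 2 Foxp3+ T cells, 1 in wt replicate 1 and 1 in het replicate 1. The Foxp3+ share of all passing cells averaged 0.113% ± 0.293 in ntCZC (n = 10) and 0.279% ± 0.204 in tissue (n = 9; exact permutation test, p = 0.183). The single cell of ntCZC het replicate 1 set that mean, and without that library the difference was -0.257 percentage points (exact permutation test, p = 0.000247). That library was singled out after its value was seen, so this p cannot decide whether the shares differ. The ntCZC libraries had 11 to 578 passing cells each, so at the tissue mean a library could hold few Foxp3+ T cells or none, and the part of library size in this p was not tested. Wt replicates 1 and 3, het replicate 2 and null replicate 2 had ntCZC and tissue libraries of the same sex and age. Their shares were 0.204%, 0%, 0% and 0% in ntCZC and 0.236%, 0.107%, 0.173% and 0.103% in tissue. The labels did not say whether these shared a mouse, and the test was not paired. Pooled over libraries, Foxp3+ cells made up 1.24% of the ntCZC T cells (2 of 161, exact 95% interval 0.151% to 4.42%) and 2.06% of the tissue T cells (204 of 9893), and the mean over the 8 ntCZC libraries with T cells was 1.55%. In the 4 ntCZC libraries with at least 10 T cells the mean share was 3.11% ± 4.74 against 2.23% ± 1.74 in tissue (exact permutation test, p = 0.709), a direction set by 1 cell among the 10 T cells of het replicate 1. The ZsGreen sort and the source in blood came together in these libraries and cannot be told apart.

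The genes of Foxp3+ T cells were compared with those of conventional CD4 T cells in the 5 tissue libraries that held at least 10 cells of each class (wt replicates 1, 2 and 4, het replicate 1 and null replicate 3). UMIs were summed per library and class, and both classes of a library were kept together as a pair in the quasi-likelihood test of edgeR, and p-values were adjusted over 3292 genes by the method of Benjamini and Hochberg. The sums ran from 23122 to 481462 UMIs in Foxp3+ T cells and from 109271 to 1162994 in conventional CD4 T cells. Of the genes tested, 56 (1.7%) passed an adjusted p of 0.05, 29 (0.881%) higher and 27 (0.82%) lower in Foxp3+ T cells. Of these, 23 were higher and 14 lower in all 5 libraries. The values of the classes did not overlap for 11 of the higher genes, against 27 (0.82%) of all genes tested, and for 4 of the lower genes, against 14 (0.425%) of all genes tested. A set of 12 genes passed also in DESeq2 and in each fit that left out 1 library. It comprised Il1rl1, Itgae, Il2ra, Ikzf2, Fam46a, Tnfrsf4, Tnfrsf18, Hopx and Ctla4 among the higher genes, and Tcf7, Tbc1d4 and Tnfsf8 among the lower ones. DESeq2 called 20 of the 29 higher genes but only 3 of the 27 lower ones, while 53 of the 56 kept their sign. Wt replicate 2 held 85 of the cells and most of the UMIs, and without it 19 genes were called.

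Among the gene lists, that of surface receptors, the longest, had the most genes higher in Foxp3+ T cells. Of 22 receptors listed, 18 were tested and 8 rose, against 0.881% higher among all genes tested, and none fell. Their median log2 difference was 0.67 against -0.05 over all genes tested. The list of tissue regulatory T cell genes had 4 of 8 tested genes higher, and Tnfrsf9 was on both lists. All lists were chosen with earlier results of these data known. Il2ra, which encodes the alpha chain of the interleukin-2 receptor (chr2:11642807-11693193, plus strand, mm10), reached 185, 141, 225, 216 and 167 CPM (UMIs scaled to a total of 1000000 per library and class) in Foxp3+ T cells of wt replicates 1, 2 and 4, het replicate 1 and null replicate 3. In conventional CD4 T cells of the same libraries it reached 32.2, 37.8, 13.4, 16.2 and 36.6 CPM. Each Foxp3+ value was above each conventional value, and the log2 difference was 2.50 ± 0.31 (SE; edgeR adjusted p = 4.80e-06). Il2rb, the beta chain shared with the interleukin-15 receptor, was higher by 0.74 ± 0.19 (edgeR adjusted p = 0.0366), a call lost whichever library was left out, with adjusted p from 0.0590 to 0.220. Il2rg, the common gamma chain, differed by 0.17 ± 0.25 (edgeR adjusted p = 0.924).

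Ctla4 (chr1:60887000-60915832, plus strand) stood at 863, 777, 518, 692 and 734 CPM in Foxp3+ T cells in the same library order. In conventional CD4 T cells it stood at 230, 362, 318, 373 and 174 CPM. The classes did not overlap, and the log2 difference was 1.14 ± 0.20 (edgeR adjusted p = 0.000756). Ctla4 was called in 13 of 20 alternative fits, with log2 differences from 0.83 to 2.44. Icos, the costimulatory receptor related to Cd28, was detected in 58.6% of Foxp3+ and 37.5% of conventional cells, and its log2 difference of 0.45 ± 0.21 missed the threshold (edgeR adjusted p = 0.471).

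Of the receptors of the tumor necrosis factor family, Tnfrsf4, Tnfrsf18 and Tnfrsf9 rose. Tnfrsf4, which encodes OX40 (chr4:156013843-156016612, plus strand), was at 370, 600, 704, 432 and 534 CPM in Foxp3+ T cells and at 64.5, 151, 236, 260 and 119 CPM in conventional CD4 T cells. Tnfrsf18, which encodes GITR (chr4:156026164-156028895, plus strand), was at 431, 449, 411, 432 and 534 CPM against 137, 97.2, 179, 195 and 128 CPM. These genes are neighbors on chromosome 4, with 9551 bases between them, and neither showed an overlap between the classes. Their log2 differences were 1.67 ± 0.22 (edgeR adjusted p = 9.90e-06) and 1.58 ± 0.22 (edgeR adjusted p = 1.99e-05). Tnfrsf9, which encodes 4-1BB, was higher by 1.75 ± 0.28 (edgeR adjusted p = 0.000161), and its adjusted p was 0.0953 without wt replicate 2. Tnfrsf1b, a receptor for tumor necrosis factor, was higher in all 5 libraries with a log2 difference of 0.60 ± 0.23 that missed the threshold (edgeR adjusted p = 0.254), and Cd27, a further member of the family, differed by 0.85 ± 0.24 (edgeR adjusted p = 0.0697).

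Lrrc32, which encodes GARP, the surface anchor of latent transforming growth factor beta, was higher by 1.80 ± 0.46 (edgeR adjusted p = 0.0305). Its adjusted p rose to 0.107, 0.217 and 0.125 without wt replicate 1, 2 or 4. Izumo1r, which encodes folate receptor 4, was higher by 1.41 ± 0.25 (edgeR adjusted p = 0.000760), and without wt replicate 2 its adjusted p was 0.0584. Nrp1, a semaphorin receptor used to mark thymus-derived regulatory T cells, differed by -0.02 ± 0.24, and the inhibitory receptors Lag3 and Pdcd1 by -0.58 ± 0.37 and 0.06 ± 0.43 on the log2 scale, none past the threshold.

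**Figure D3:**
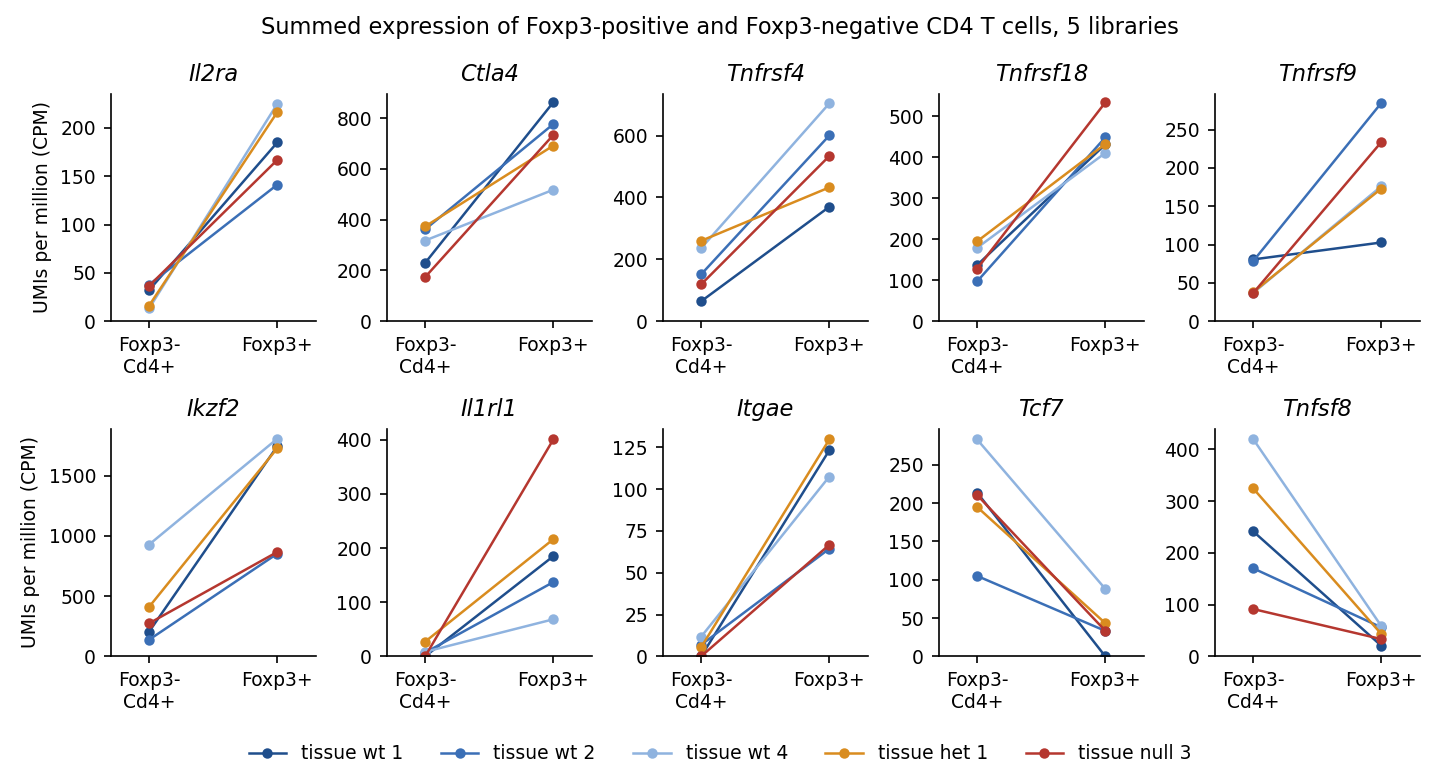
Level of named genes in CPM in the Foxp3+ T cells and conventional CD4 T cells of 5 tissue libraries, with a line joining the classes of each library. Il2ra, Ctla4, Tnfrsf4 and Tnfrsf18 were higher in the Foxp3+ T cells of all 5 libraries, and Tcf7 and Tnfsf8 were lower in all 5.

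The promoters of the receptor genes that moved together were read for the letters of motifs that factors of this cell type are known to prefer. The windows below are the 250 bases before a transcription start in the RefSeq table of GRCm38.p6, all on the plus strand and written 5′ to 3′, with motif matches of either strand in capitals. The motifs were TGTTTAC, a forkhead motif, GGAAA, the core bound by NFAT and shared with other factors, and TTCNNNGAA, the STAT motif, whose matches can overlap those of GGAAA. Il1rl1 has a pair of listed starts, and both windows are shown.
Il2ra, chr2:11642542-11642791: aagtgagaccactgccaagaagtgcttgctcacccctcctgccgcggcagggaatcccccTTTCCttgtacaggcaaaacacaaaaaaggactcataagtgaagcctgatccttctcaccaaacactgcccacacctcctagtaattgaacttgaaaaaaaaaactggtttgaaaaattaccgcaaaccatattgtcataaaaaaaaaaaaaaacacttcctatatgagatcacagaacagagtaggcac
Ctla4, chr1:60908775-60909024: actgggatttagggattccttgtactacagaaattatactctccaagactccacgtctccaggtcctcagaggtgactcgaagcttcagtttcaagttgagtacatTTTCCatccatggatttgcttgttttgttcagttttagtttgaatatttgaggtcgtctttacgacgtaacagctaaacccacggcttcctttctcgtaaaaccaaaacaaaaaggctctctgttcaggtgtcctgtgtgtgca
Tnfrsf4, chr4:156013445-156013694: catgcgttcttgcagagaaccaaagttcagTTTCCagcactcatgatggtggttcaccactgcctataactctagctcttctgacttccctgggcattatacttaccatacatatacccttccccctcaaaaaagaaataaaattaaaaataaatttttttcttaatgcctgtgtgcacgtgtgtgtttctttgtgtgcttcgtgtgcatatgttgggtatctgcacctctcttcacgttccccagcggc
Tnfrsf18, chr4:156026072-156026321: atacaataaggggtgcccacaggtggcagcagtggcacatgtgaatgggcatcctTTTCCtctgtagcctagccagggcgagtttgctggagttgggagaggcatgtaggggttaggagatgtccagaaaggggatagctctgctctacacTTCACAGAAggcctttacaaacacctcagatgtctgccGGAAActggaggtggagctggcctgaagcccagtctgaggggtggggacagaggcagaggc
Il1rl1, first window, chr1:40429320-40429569: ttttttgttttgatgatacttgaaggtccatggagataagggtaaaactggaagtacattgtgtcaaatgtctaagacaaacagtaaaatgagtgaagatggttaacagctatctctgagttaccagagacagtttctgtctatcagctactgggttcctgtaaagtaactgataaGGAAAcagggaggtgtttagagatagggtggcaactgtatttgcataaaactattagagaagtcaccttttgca
Il1rl1, second window, chr1:40439379-40439628: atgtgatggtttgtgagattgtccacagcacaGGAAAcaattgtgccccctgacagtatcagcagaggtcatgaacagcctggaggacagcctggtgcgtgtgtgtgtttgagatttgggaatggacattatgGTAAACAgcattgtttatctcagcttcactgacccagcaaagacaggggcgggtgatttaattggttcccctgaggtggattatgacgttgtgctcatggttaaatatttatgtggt

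Each of these windows held at least 1 GGAAA match, and Tnfrsf18 held 2 with 1 TTCNNNGAA match. TGTTTAC was found once, on the minus strand, in the second Il1rl1 window. Of the 29 higher genes, 18 had a window in the table, 22 windows in all. GGAAA was in 20 of these (90.9%) and in 55.6% of all 32851 windows, TTCNNNGAA in 2 (9.09%) against 7.02%, and TGTTTAC in 1 (4.55%) against 3.17%. A match is a description of the letters and not a measured site. No window was listed for Ikzf2, Ikzf4 or Itgae.

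On the list of regulatory T cell transcription factors, Ikzf2 and Ikzf4 of the Ikaros family rose and the other factors tested were not called. Of 18 factors listed, 13 were tested and none fell, with a median log2 difference of -0.02. Ikzf2 (chr1:69531214-69687245, minus strand) reached 1746, 854, 1809, 1730 and 868 CPM in Foxp3+ T cells and 206, 138, 929, 411 and 275 CPM in conventional CD4 T cells. It was higher in every library, while the conventional cells of wt replicate 4 exceeded the Foxp3+ T cells of wt replicate 2 and null replicate 3. The log2 difference was 1.94 ± 0.23 (edgeR adjusted p = 1.28e-06). Ikzf4, which encodes Eos, a partner of FOXP3 in repression, was higher by 2.42 ± 0.45 (edgeR adjusted p = 0.00113), with an adjusted p of 0.160 without wt replicate 2. Ikzf1 and Ikzf3, the Ikaros and Aiolos genes of lymphoid cells, differed by -0.79 ± 0.27 and -0.18 ± 0.29, both short of the threshold. Batf, a factor of effector regulatory T cells, differed by 1.09 ± 0.34 (edgeR adjusted p = 0.125), and Foxo1 and Runx1 by -0.02 ± 0.27 and 0.14 ± 0.26.

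Genes known from regulatory T cells of solid organs included the largest differences of all. Of 12 such genes listed, 8 were tested. Of these, 4 rose (Il1rl1, Itgae, Tnfrsf9 and Gata3), against 0.881% higher among all genes tested. None fell, and the median log2 difference was 1.16. Il1rl1 (chr1:40429570-40465415, plus strand) was at 185, 137, 68.4, 216 and 400 CPM in Foxp3+ T cells. In conventional CD4 T cells it was at 0, 6.88, 8.37, 27.1 and 0 CPM, and the totals were 99 UMIs against 18 although the conventional cells had more UMIs in every library. The log2 difference was 4.07 ± 0.45 (edgeR adjusted p = 8.10e-07), the largest of the 29. Itgae, which encodes CD103, the integrin chain that binds epithelial E-cadherin, was at 123, 64.4, 108, 130 and 66.7 CPM against 0, 6.88, 11.7, 5.41 and 0 CPM. Its log2 difference was 3.58 ± 0.58 (edgeR adjusted p = 0.000206), and the classes did not overlap.

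Gata3, a transcription factor used by type 2 helper and tissue regulatory T cells, was higher in 4 of 5 libraries by 1.23 ± 0.28 (edgeR adjusted p = 0.0132). Its adjusted p was 0.130 without wt replicate 1, 0.392 without wt replicate 2 and 0.148 in DESeq2. Areg, which encodes the repair factor amphiregulin, was detected in 30.5% of Foxp3+ and 9.86% of conventional cells and was higher in all 5 libraries, with a log2 difference of 0.78 ± 0.26 that missed the threshold (edgeR adjusted p = 0.152). Klrg1, a receptor of terminally differentiated lymphocytes, was below the filter on low counts, with 25 UMIs in Foxp3+ and 3 in conventional cells. Ccr8, a chemokine receptor of tissue and tumor regulatory T cells, also fell below it with 13 and 11 UMIs. Over all libraries Ccr8 was detected in 3.91% of Foxp3+ and 0.986% of conventional cells.

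Within the Foxp3+ T cells, Il1rl1 was detected in 45 cells. Klrg1 was detected in 33.3% of these and in 5.21% of the other 211, Gata3 in 60.0% and 25.1%, Itgae in 33.3% and 12.8%, and Areg in 44.4% and 27.5%. Ctla4 (75.6% and 57.3%) and Tnfrsf9 (48.9% and 29.9%) were also found more often in the Il1rl1+ cells. Ikzf2 was found in 86.7% and 82.9% and Il2ra in 31.1% and 28.4%. The Il1rl1+ cells had a median of 2561 UMIs against 1904 in the rest. By library there were 3, 21, 3, 3 and 0 of them in the wt libraries, 1 and 1 in the het libraries, 1 and 5 in the null libraries, and 2 and 5 in those without a group. In wt replicate 2, which held 21, Ctla4 was detected in 76.5% of all members. The part of depth and of library make-up in these shares was not tested. Ccr7, the receptor that guides lymphocytes to lymph nodes, was detected in 40 members, 26 of them in wt replicate 2. Their median depth was 4003 UMIs against 1848 in the rest.

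**Figure D4:**
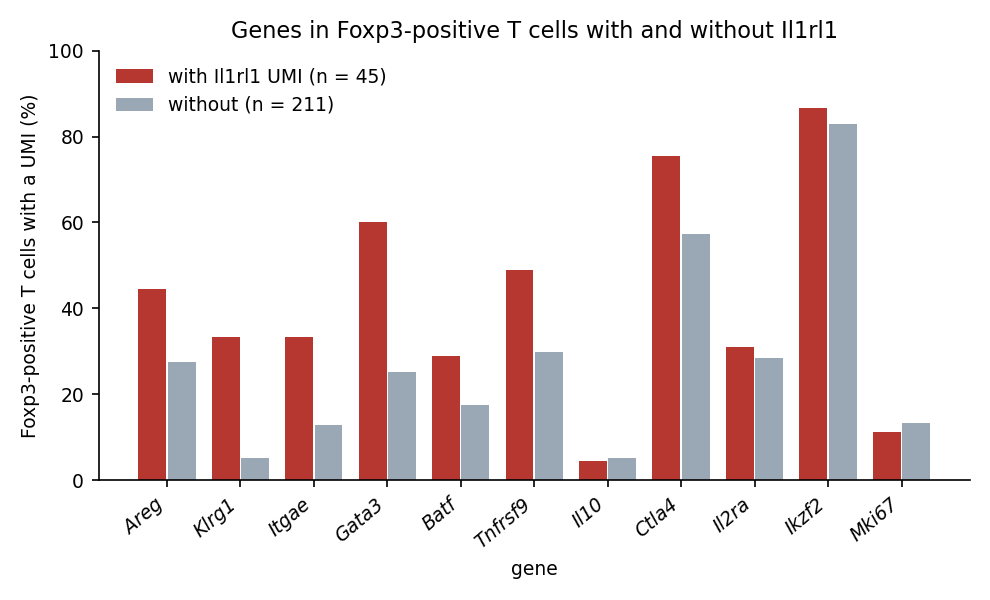
Percent of Foxp3+ T cells with at least 1 UMI of each gene (vertical axis) among the 45 cells with an Il1rl1 UMI and the 211 without, all libraries pooled. Klrg1 and Gata3 were found in 33.3% and 60.0% of the Il1rl1+ cells against 5.21% and 25.1% of the others, and Ikzf2 was at like levels.

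Suppressive mediators did not pass the test. Of 11 listed, 8 were tested and none was called, with a median log2 difference of 0.41. Penk, an enkephalin precursor gene found in regulatory T cells, came nearest at 1.45 ± 0.40 (edgeR adjusted p = 0.0556), and Fgl2, a secreted fibrinogen-like protein gene, differed by 0.81 ± 0.30 (edgeR adjusted p = 0.236). Il10, the anti-inflammatory cytokine gene, had 23 UMIs in Foxp3+ and 125 in conventional cells and differed by -0.18 ± 0.57 (edgeR adjusted p = 0.975). Against all other Foxp3-negative T cells, a comparison chosen after seeing the data, Il10 was higher by 1.66 (edgeR adjusted p = 0.0192). Ebi3, a subunit gene of interleukin-35, was too low to test, at 16 and 14 UMIs. Its mean was 30.1 CPM in Foxp3+ and 5.94 CPM in conventional cells, higher in all 5 libraries without overlap between the classes.

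In interleukin-2 signaling 11 of 13 genes were tested and only Il2ra and Il2rb rose. The signal transducers Jak1, Stat5a and Stat5b differed by -0.06 ± 0.20, 0.13 ± 0.30 and -0.09 ± 0.29. Cish, a target of STAT5, differed by 0.88 ± 0.29 (edgeR adjusted p = 0.141), and the survival gene Bcl2 by -1.10 ± 0.31 (edgeR adjusted p = 0.0636). None of 13 tested genes of T cell receptor signaling, 8 of the NF-kappaB pathway, 9 homing receptors and 7 proliferation genes was called, with median log2 differences of -0.11, 0.41, 0.19 and 0.56. In the NF-kappaB list 7 of 8 differences were above 0, with Traf1, an adaptor of the tumor necrosis factor receptors, at 0.75 ± 0.24 (edgeR adjusted p = 0.128). Birc2, which encodes another protein of these receptor complexes and which was on no list and is named after its values were seen, was higher by 0.98 ± 0.25 (edgeR adjusted p = 0.0305). Its call was lost in DESeq2 (adjusted p = 0.0723) and without het replicate 1, null replicate 3, wt replicate 1 or wt replicate 2 (edgeR adjusted p from 0.0599 to 0.160). Mki67, the proliferation marker, differed by 0.99 ± 0.36 (edgeR adjusted p = 0.219).

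**Figure D5:**
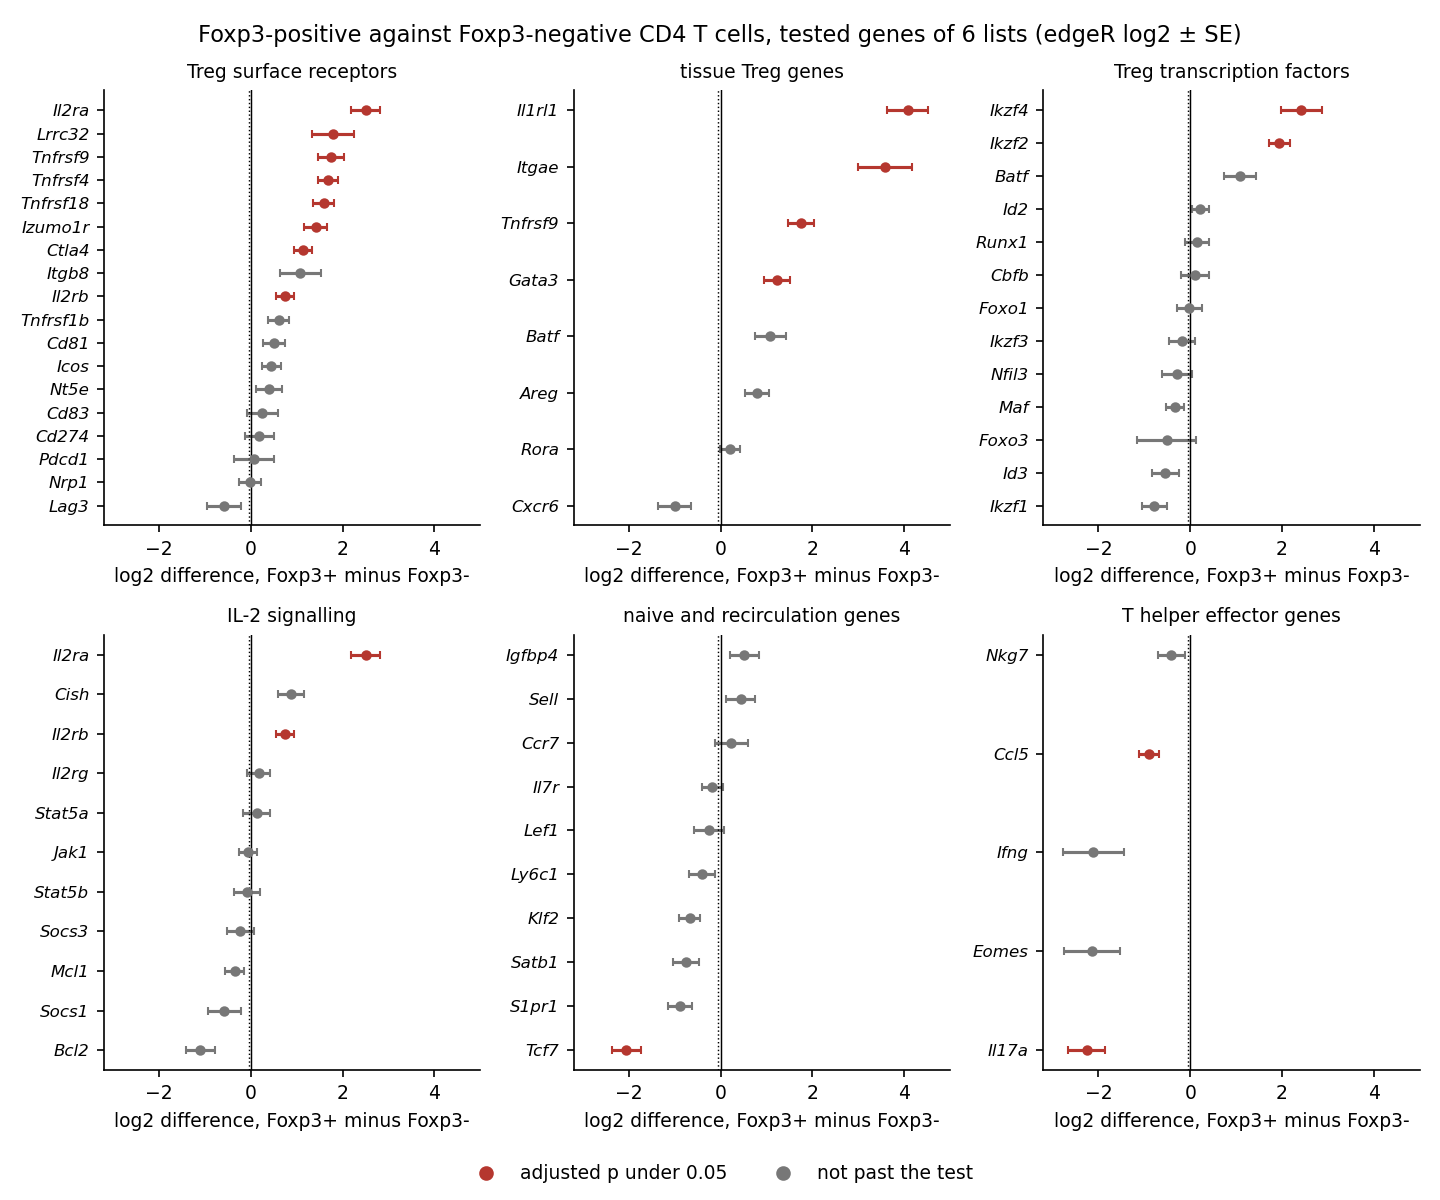
Log2 difference of Foxp3+ T cells minus conventional CD4 T cells (horizontal axis) for the tested genes of each list, 1 point a gene, with called genes marked. Surface receptors held 8 called genes and tissue regulatory T cell genes 4, all higher, and the T helper list was to the left with 2 called genes lower.

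Further higher genes lay outside the lists. Fam46a (now named Tent5a), a poly(A) polymerase gene, was at 698, 457, 68.4, 389 and 234 CPM in Foxp3+ T cells against 121, 144, 25.1, 146 and 73.2 CPM in conventional CD4 T cells. It was higher within every library by 1.69 ± 0.24 on the log2 scale (edgeR adjusted p = 2.64e-05), while wt replicate 4 was lowest in both classes. Hopx, a homeodomain-only gene expressed in regulatory T cells, was higher by 1.42 ± 0.25 (edgeR adjusted p = 0.000596). Arl5a, a small GTPase gene, and Iigp1, an interferon-induced GTPase gene, were higher by 1.35 ± 0.30 and 1.33 ± 0.30, both without overlap between the classes. Without wt replicate 1 their adjusted p was 0.0899 and 0.107, and without wt replicate 2 that of Iigp1 was 0.0922 (edgeR).

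The genes lower in Foxp3+ T cells in every library with the largest differences were Tnfsf8, Tbc1d4 and Tcf7. Retnlg, a neutrophil gene outside the naming rule and named after its values were seen, had the largest drop of all called genes (-2.39 on the log2 scale, edgeR adjusted p = 0.00113), with UMIs in wt replicates 1 and 2 alone, and had the opposite sign in DESeq2 (0.41). Tcf7, which encodes the transcription factor TCF1 of naive and memory T cells (10.9% of Foxp3+ and 33.9% of conventional cells), was at 0, 33.2, 88.0, 43.2 and 33.4 CPM against 214, 105, 283, 195 and 210 CPM. The classes did not overlap, and the log2 difference was -2.05 ± 0.32 (edgeR adjusted p = 0.000161). Tcf7 was the only gene called of 10 tested on the list of naive and recirculating cells, where Lef1 and Ccr7 differed by -0.24 ± 0.33 and 0.24 ± 0.37. The recirculation genes S1pr1 and Klf2 differed by -0.89 ± 0.26 (edgeR adjusted p = 0.0791) and -0.68 ± 0.22 (edgeR adjusted p = 0.141).

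Tnfsf8, which encodes the CD30 ligand, was at 20.5, 56.1, 58.7, 43.2 and 33.4 CPM in Foxp3+ T cells and at 242, 170, 420, 325 and 91.5 CPM in conventional CD4 T cells. Each Foxp3+ value was below each conventional one, with a log2 difference of -2.24 ± 0.30 (edgeR adjusted p = 1.27e-05). Tbc1d4, a Rab GTPase-activating protein gene, was lower by -2.09 ± 0.29 on the log2 scale (edgeR adjusted p = 1.99e-05). Cd40lg, the helper ligand for B cells, was below the filter at 4 and 62 UMIs, as were Il21 at 1 and 58 and Il2 at 0 and 11 UMIs. These counts are not scaled, and the conventional cells had more UMIs in every library.

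Of 17 T helper effector genes, 5 were tested, and Il17a and Ccl5 fell. Il17a, the cytokine gene of type 17 helper cells, had 95 of its 96 Foxp3+ UMIs and 1090 of its 1114 conventional UMIs in wt replicate 2. Its edgeR log2 difference of -2.26 ± 0.40 (adjusted p = 0.000833) had the opposite sign in DESeq2, 0.84, with an adjusted p of 0.999, and it could not be tested without wt replicate 2. Ccl5, a chemokine of effector lymphocytes, was lower in all 5 libraries by -0.90 ± 0.22 on the log2 scale (edgeR adjusted p = 0.0201), with an adjusted p of 0.147 without wt replicate 2 and 0.340 without wt replicate 4. Eomes and Ifng, effector genes of type 1 cells, differed by -2.14 ± 0.60 and -2.11 ± 0.66 and missed the threshold (edgeR adjusted p = 0.0636 and 0.121). Of 8 stress genes, Hspa1b fell by 0.96 ± 0.24 on the log2 scale (edgeR adjusted p = 0.0238), a call lost without wt replicate 1 (adjusted p = 0.230) or wt replicate 2 (adjusted p = 0.183). Hspa1b shares most of its sequence with Hspa1a, so the split of reads between them is uncertain.

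Markers of other cell types also moved between the classes. Of 4 myeloid markers tested, Lyz2, S100a8 and S100a9 fell, by 1.55 ± 0.38, 1.48 ± 0.38 and 1.5 ± 0.37 on the log2 scale. These calls rested on few libraries. Lyz2 was higher in the Foxp3+ T cells of 2 of the 5 libraries, and its call was lost without het replicate 1, null replicate 3, wt replicate 1 or wt replicate 2 (edgeR adjusted p from 0.0866 to 0.188). S100a8 and S100a9 were at -0.87 and -0.79 without wt replicate 1 (edgeR adjusted p = 0.406 and 0.485). Of 5 endothelial markers Cldn5 fell by 1.34 ± 0.36 on the log2 scale, a call lost without het replicate 1, null replicate 3, wt replicate 1 or wt replicate 2 (edgeR adjusted p from 0.0635 to 0.278). The summed level of the 7 myeloid markers ran from 0 to 1799 CPM over the 5 libraries in Foxp3+ T cells and from 544 to 3263 CPM in conventional CD4 T cells. The share of cells with a UMI of them went the other way, at 53.3% of Foxp3+ and 44.3% of conventional cells. The remaining lower genes that moved the same way in every library included the antigen-presentation genes H2-Aa and H2-Ab1, the signaling adaptor gene Tyrobp, Cd9, Ccl6, Gdf15, Ramp2, Alox5ap and Irf2bp2, with log2 differences from -1.84 to -0.93. DESeq2 called none of these or of the myeloid markers, and all of them but Gdf15 lost their call without at least 1 library. For Gdf15, wt replicate 2 held 24 of the 26 UMIs in Foxp3+ and 176 of the 221 in conventional cells. H2-Aa and H2-Ab1 were at 2 and 1 UMIs in the Foxp3+ T cells of het replicate 1, where the conventional CD4 T cells had 119 and 126. The part of myeloid RNA in these differences was not tested.

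Of 5 B cell markers, 2 were tested and 1 was called. Ighm, the immunoglobulin mu chain gene, was higher by 1.35 ± 0.25 (edgeR adjusted p = 0.00103) in all 5 libraries, with an adjusted p of 0.122 without wt replicate 2. The B cell markers summed to between 288 and 978 CPM in Foxp3+ T cells and to between 96.7 and 633 CPM in conventional CD4 T cells, ranges that overlap, and 61.1% and 36.1% of cells had a UMI of them. The epithelial list held 1 called gene of 4 tested, Kap, a kidney proximal tubule gene with 504 of its 515 Foxp3+ UMIs in wt replicate 2, and without that library it was at 0.54 (edgeR adjusted p = 0.922). Ncr1 and Gzma, markers of natural killer and cytotoxic cells, were at 0 UMIs in these Foxp3+ T cells. No fibroblast or red cell marker was called among 3 and 4 tested. With no UMI of 11 further lineage genes allowed in either class of the same libraries, 40 genes were called, 20 in each direction, of which 33 were among the 48 of the original 56 still tested.

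Between genotypes, Foxp3+ T cells were too few for the planned gene test, since only 1 het and 1 null library held at least 10 of them. With the bar at 5 cells, 8 libraries and 461 genes could be fitted with sex as a covariate. Age was not in the fit, and for het it cannot be told apart from genotype. The quasi-likelihood test of edgeR called no gene (0%) for het against wt and none (0%) for null against wt. Among the 46 list genes tested, the smallest edgeR adjusted p was 0.564 for het and 0.906 for null. At an unadjusted p of 0.05 there were 34 and 24 of all 461 genes, and DESeq2 also called 0 in both. In simulated counts of this size for het against wt, 200 of 461 genes were changed. Of those changed 4-fold 35% were recovered, and of those changed 2-fold 5%, so differences of this size would mostly have been missed. Null against wt was not simulated, and the simulated spread followed the mean level of a gene alone. Ctla4 differed from wt by -0.59 ± 0.59 in het and 0.80 ± 0.52 in null on the log2 scale, adjusted for sex. Ikzf2 differed by 0.44 ± 0.36 and -0.99 ± 0.39, all short of the threshold.

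Detection in single libraries showed the same spread. Ctla4 was found in 85.7%, 76.5%, 16.7%, 52.7% and 100% of the Foxp3+ T cells of the wt libraries in replicate order, in 41.7% and 28.6% in the het libraries, and in 55.6% and 64.3% in null. Ikzf2 was found in 71.4%, 80.0%, 100%, 92.7% and 100% in wt libraries, 75.0% and 85.7% in the het libraries, and 66.7% and 78.6% in null. Il2ra was found in 35.7%, 40%, 0%, 25.5% and 100% in wt libraries, 8.33% and 57.1% in the het libraries, and 0% and 21.4% in the null libraries. For all 3 markers the het and null values lay inside the wt range, except the Ikzf2 value of null replicate 2. The 6 and 2 cells of wt replicates 3 and 5 set the ends of that range for each marker but the low end of Ikzf2.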

How the data were processed

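Single-cell suspensions of pooled organs, sorted blood cells and PBMC were profiled with 10x Chromium 3′ chemistry. The authors aligned reads to mm10 with Cell Ranger (2.1.1 per the processing notes, 3.0.2 per the matrix headers) and deposited filtered matrices of UMI counts for 31053 genes, with no normalization. Whether Cell Ranger kept reads that map to several genes is not given in the sources used here. Total counts ran from 8571019 to 139793927 UMIs in tissue libraries with a group, from 161541 to 2600526 in ntCZC and to 1422144 in PBMC, and intervals from them cover counting error only. Replicate pairs (21), compared by the summed UMIs of their T cells, differed beyond the sampling noise of independent UMIs, with a lowest chi-square of 1.74 per degree of freedom. UMIs of a cell are not independent, and the part of cell sampling was not tested.

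Groups came from the labels. The members and the 20 gene lists were chosen with earlier results of these data known. Counts were summed per library and class, the 9 genes of the gate were left out, and edgeR 4.0.16 (TMM, filterByExpr, quasi-likelihood, library as block) in R 4.3.3 gave the main test, with DESeq2 1.42.0 as an alternative. The fit between genotypes held sex as a covariate. The SE of an edgeR log2 difference was computed back from the test, as the size of the difference over the root of F. Shares were tested by exact permutation in Python 3.11.15 with scipy 1.17.1. The library block rests on both classes being cells of the same library. Named were the list genes and, among called genes that moved the same way in every library, up to 15 in each direction, with exceptions stated. Lower counts, other gates, depth, libraries and comparison classes were varied. On simulated data for the paired test, 62% of 2-fold and 89% of 4-fold changes among 200 genes were recovered, with 3 false calls. There too the simulated spread followed the mean level of a gene alone, and differences between libraries other than depth were not simulated. The rates in the real counts may therefore differ. Coordinates are from GENCODE vM21 (mm10) and promoters from RefSeq.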

Additional observations from a re-analysis of the deposited data

Results flagged for a closer look

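Of 53 sets of library values checked, 8 held a library whose gap to its nearest neighbor, as a part of the whole range, passed the 95% critical value of Dixon's test, which chance passes in about 1 of 20 sets. That rate holds for normally distributed values, and some sets here held values of 0. The share of passing cells that were Foxp3+ T cells was 0.926% in ntCZC het replicate 1, from 1 cell, while 8 of the other ntCZC libraries had none. The set checked was that of the ntCZC het libraries, where all others were at 0, so any value above 0 would have been flagged. For single genes the measure was the log2 ratio of Foxp3+ over conventional CD4 T cells within a library, after adding 10 CPM to both. Null replicate 3 stood apart for Gdf15 (-4.13) and Tbc1d4 (-4.92), both with 0 UMIs in its Foxp3+ T cells. Het replicate 1 stood apart for H2-Aa (-2.76) and H2-Ab1 (-3.70). Wt replicate 1 stood apart for Hspa1b (-2.78) and S100a8 (-5.82), and wt replicate 2 for Il2rb, where its ratio of 0.43 was the lowest of 5.

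Data outside the comparisons also held Foxp3+ cells. The tissue libraries without a group had 11 (2.01% of 546 T cells) and 39 (2.42% of 1609). Another 174 cells with a Foxp3 UMI passed the quality filter but lay outside the T cell gate.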

How the results depend on the processing

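The count of 56 genes that differed between Foxp3+ and conventional CD4 T cells moved by over 1.5 times under these settings. In the same 5 libraries DESeq2 called 25 genes (22 higher, 3 lower) and thinning to 500 UMIs 11 of only 591 tested. Stricter gates also left fewer libraries with 10 cells a class, and gate and library number cannot be told apart except for the lineage genes, which were also fitted in the same 5 libraries. With 3 libraries left, a Foxp3 bar of 2 UMIs gave 21, exclusion of 11 further lineage genes 15 of 1701 tested (40 in the same 5 libraries) and a bar of 2 CD3 or Trbc2 UMIs 37. With 2 left, at least 20 cells a class gave 34 and at most 10% mitochondrial UMIs 118 (44 higher, 74 lower). Of the settings chosen after seeing the data, some did so as well, at least 5 cells a class with 35 (8 libraries) and all other T cells as the comparison with 374 of 10490 tested (142 higher, 232 lower). Leaving out 1 library gave 19 to 82 genes. Without a filter on low counts the count stayed within 1.5 times, at 72, but its split moved (28 higher, 44 lower). Without the replicate block, that is, with the library pairing dropped, 4 genes were called of 2127. Of 2753 values under alternatives of the 151 genes on a list or named by size, 214 had the opposite sign, and 9 of these were called before or after the change: Il17a in DESeq2 (0.84), Lyz2 (0.0798), Kap (-0.45) and Hbb-bt (-3.94) with at least 2 Foxp3 UMIs, Kap with at most 10% mitochondrial UMIs (-0.18), and, against all other T cells, Kap (-0.38), Hbb-bt (-1.17), Cd6 (1.00) and Il10 (1.66). Among the other called genes, Retnlg (0.41) and Ighg2c (0.13) changed sign in DESeq2 and Mgp (-0.84) with at least 2 Foxp3 UMIs. The cause was not tested for any of these.

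For shares, leaving out 1 library gave differences in percentage points of -2.17 to -0.83 for het, -2.35 to -1.01 for null, -2.26 to -0.92 for both together and -0.257 to -0.114 for ntCZC against tissue. For het and null together, at most 10% mitochondrial UMIs gave -0.18 percentage points (exact permutation test, p = 0.865). Exclusion of the 11 further lineage genes gave -2.32 (exact p = 0.0635) and at least 2 Foxp3 UMIs -1.79 (exact p = 0.0873). As a share of all passing cells the difference was -0.239 (exact p = 0.0794). Replicate numbers shared across genotypes mark no common mouse or day in the labels. With them as a replicate block, the share differed by -1.39 percentage points for het (exact permutation test, p = 0.5) and -1.03 for null (exact p = 1), where the smallest p was 0.5. In the gene test between genotypes, the same replicate block called 4 genes for het (Gm42418, mt-Nd2, mt-Atp6 and mt-Co3, all higher) and 0 for null. Without a filter on low counts 10 genes were called for het and 1 for null, all lower. Fits with at least 2 Foxp3 UMIs or at most 10% mitochondrial UMIs could not be made for genotype.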
